A study of Piaractus mesopotamicus with 9 samples.

Results

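The genes described are the proteasome subunits and regulators of pacu myotubes, taken as every annotated gene name that begins with psma to psmg and a number and whose raw counts averaged at least 10 over 9 libraries. The rule used names and depth only, not the differences between groups, but it was chosen with earlier results of these data known. It gave 48 genes, carried by 79 assembled contigs, of 13162 gene names and 35575 contigs tested. Of these, 21 encode the core particle (psma and psmb), 23 are regulatory (psmc, psmd and psme) and 4 are other members (psmf and psmg). A further 2 names matched the rule but fell below the minimum, psmd4b with 8 raw counts in all and psmc3ip with 22, 14 and 8 raw counts on its 3 contigs.

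Pacu (Piaractus mesopotamicus) is a South American characin fish, and the cells were primary muscle cultures that had formed myotubes by day 8. All cultures first spent 12 h without amino acids, and they were then divided into 3 groups of 3 libraries for a further 24 h. CTR stayed in the amino acid-free medium (36 h in all), AA received a medium that contains amino acids, and IGF1 received the amino acid-free medium with recombinant insulin-like growth factor 1 of gilthead sea bream. IGF1 therefore names the growth factor without refeeding, and AA differed from CTR in its whole base medium. The treatment field of the sample records gives 12 h and the protocol 24 h, and the protocol was followed here. Each culture came from the pooled fast muscle of several juvenile fish. The methods speak of 3 independent cultures, without saying whether libraries of the same number shared one. The main fit did not pair the libraries.

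The proteasome degrades proteins that carry ubiquitin chains, and in muscle it removes contractile proteins during fasting as well as damaged proteins at any time. Its 20S core is a barrel in which outer rings of alpha subunits gate the entrance and inner rings of beta subunits hold the catalytic sites. The 19S regulatory particle binds ubiquitin chains, unfolds the substrate with a ring of ATPases and removes the ubiquitin, while the 11S and PA200 particles are alternative caps that open the core without needing ubiquitin. Inducible beta subunits replace the constitutive catalytic ones in immune signaling, and dedicated chaperones build both particles.

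Library depth was uneven, from 1366043 raw counts in AA replicate 3 to 53525876 in IGF1 replicate 3. In AA replicate 3 the median proteasome gene had 42.5 raw counts and 1 gene (psmb8a) had 0, against a median of 1258 in IGF1 replicate 3, and 15.1% of all tested contigs were at 0 in that AA library (at most 4.33% in any other). Levels are given below as the normalized counts that the authors deposited, in which library depth has been divided out. They carry no correction for contig length, so levels are compared between groups and not between genes. Where genes are said to make up most of a sum, this describes counts and not transcript numbers. Each gene was read at its contig with the most counts. Fold-changes are on the log2 scale from an edgeR quasi-likelihood fit to the raw counts of all 35575 contigs, each with its standard error (SE), and a gene was called up- or down-regulated at an adjusted p of 0.05 or less. With bulk RNA, fewer cells of a type and less RNA per cell cannot be told apart.

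Transcripts of the proteasome were higher in AA than in CTR across most of its parts, mostly by less than 2-fold. Compared to CTR, 17 of the 48 genes were up-regulated in AA and 2 were down-regulated (edgeR, adjusted p of 0.05 or less), where 6.56% of all gene names were up-regulated and 6.57% down-regulated. The proteasome genes were better counted than most names (median of mean raw counts 371 against 98.4), and among names averaging at least 100 raw counts the background was 8.5% up and 11.6% down. The fold-change was above 0 for 40 of the 48 genes, with a median of 0.51, against 51.7% of all names above 0 and a median of 0.03 over them. Only psma3 and psmg3 also passed a 2-fold minimum, for which the background was 4.03% up and 2.96% down.

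The summed normalized counts of the 48 genes were also higher in AA. Per 1000000 normalized counts they took 925, 1108 and 1020 in the CTR libraries, 1371, 1584 and 1508 in AA and 1147, 1060 and 1160 in IGF1. The 3 AA libraries lay above all others and their mean was 1.46-fold that of CTR, while the IGF1 range overlapped that of CTR. A sum per 1000000 is scaled by library total alone. With that scaling, typical contigs were also higher in AA than in CTR, by 0.12 (log2, median over those tested). In the main fit this value was -0.02. The ratio of 1.46 was not corrected for this shift. Gene by gene, all 3 AA libraries lay above all 3 CTR libraries for 27 of the 48 genes and below them for 3, against 16.4% and 16.2% of all names.

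The call count in AA depended on single libraries, although none of the 19 called genes changed direction in the alternatives run. It was 19 with all libraries and 10 to 17 when 1 was left out, the lower values being 10 without CTR replicate 3, 10 without AA replicate 2 and 11 without CTR replicate 1. Without the shallow AA replicate 3 there were 16 up-regulated and 1 down-regulated gene. These kept 15 of the 19 calls, with psmd7, psmd14, psme1 and psmf1 lost and psmb5 and psmd11b gained. The 8 genes psma3, psma5, psma8, psmb7, psmc4, psmc6, psmd1 and psme4a kept their AA call in all 21 alternative fits. Myotube markers moved with the AA group too. Of 16 such genes found, 13 were up-regulated in AA, and their summed normalized count was 4799 to 5192 in CTR, 7224 to 10932 in AA and 4245 to 4593 in IGF1. The actin genes actc1a and acta1 made up most of this sum, with means of 3021 and 1219 normalized counts in CTR. Gene by gene, 3 of the 16 were up-regulated in IGF1 (myog, ttn.1 and ttn.2) and 1 was down-regulated (acta1), with a median of 0.15. Of 6 myoblast and satellite cell genes found, 2 were up-regulated (myf5 and cdh15) and 1 was down-regulated (pax7b) in AA, and 1 was down-regulated in IGF1 (myf5). Their summed normalized count was 558 to 668 in CTR, 667 to 942 in AA and 479 to 549 in IGF1. The part of these shifts in the proteasome values was not tested.

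**Figure D1:**
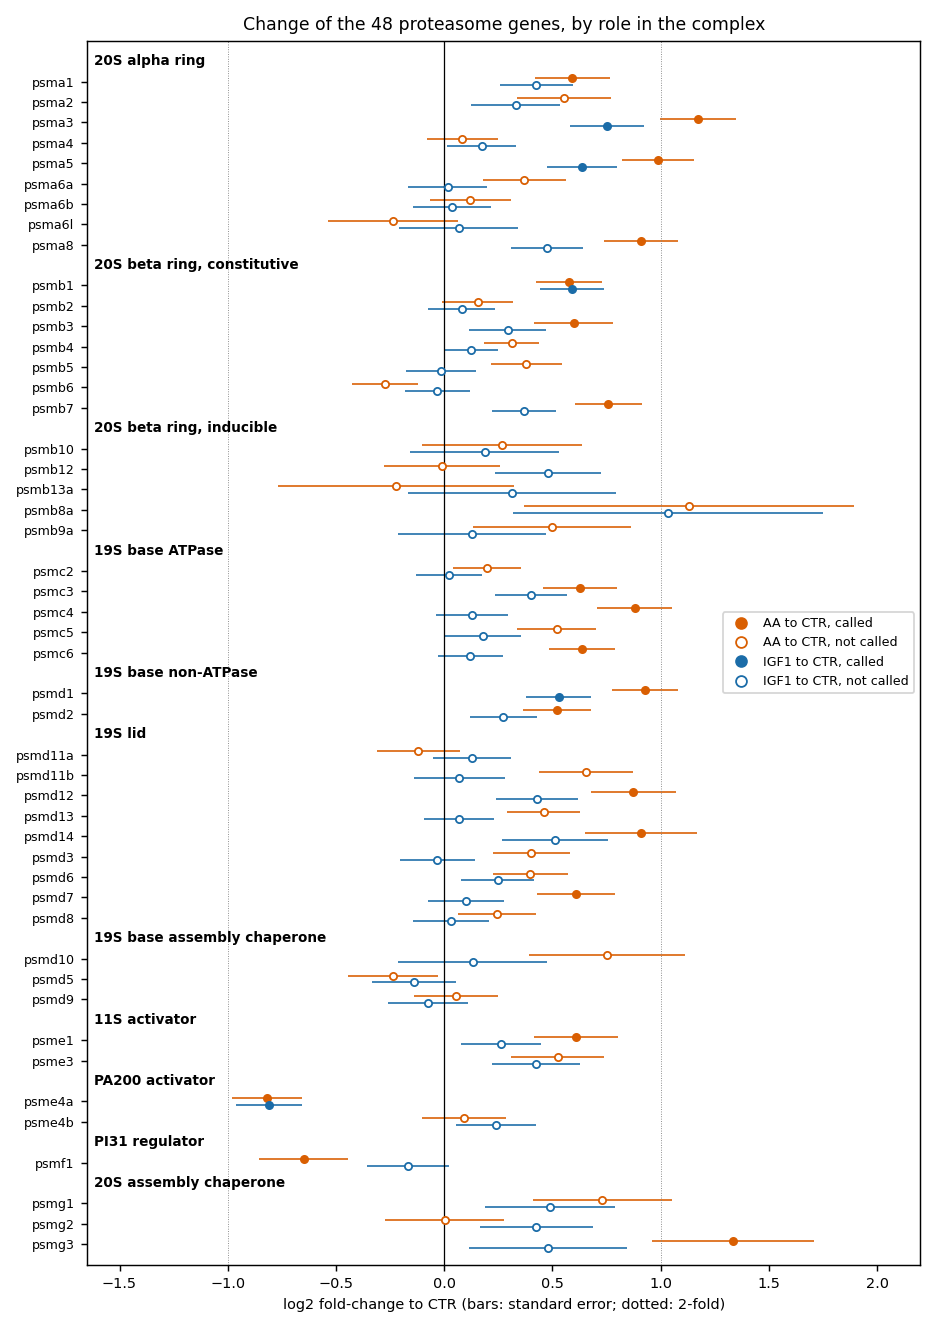
Log2 fold-change to CTR of each proteasome gene (x axis, bars are the SE from edgeR) for AA in orange and IGF1 in blue, grouped by role, with filled points for called genes. Of 48 genes, 40 lay right of 0 in AA and 41 in IGF1, with psme4a lowest in both.

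Among the alpha subunits, which gate the core, 4 of 9 genes were up-regulated in AA (psma1, psma3, psma5 and psma8) and none was down-regulated. The group's median fold-change was 0.55 in AA and 0.33 in IGF1. Normalized counts of psma3 (contig Duran_pc_TRINITY_DN92051_c0_g1_i1) were 137, 155 and 166 in CTR, 332, 372 and 330.4 in AA and 228, 308 and 251 in IGF1. The 3 groups did not overlap, with CTR lowest, IGF1 between and AA highest. Compared to CTR, psma3 was 2.25-fold higher in AA (log2 1.17 ± 0.18 SE, edgeR adjusted p = 0.00019) and 1.69-fold higher in IGF1 (log2 0.75 ± 0.17, adjusted p = 0.010). The IGF1 call of psma3 was lost without CTR replicate 1 (adjusted p = 0.051).

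A like order was seen for psma5, with normalized counts of 174, 182 and 163 in CTR, 358, 319 and 373 in AA and 251, 313 and 252 in IGF1. All AA libraries exceeded all IGF1 libraries and these exceeded all CTR libraries. The log2 fold-change of psma5 was 0.99 ± 0.17 in AA (edgeR adjusted p = 0.00061) and 0.64 ± 0.16 in IGF1 (adjusted p = 0.023). This IGF1 call was lost when any single CTR or IGF1 library was left out (adjusted p up to 0.14).

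For psma8, known in mammals as the germ cell counterpart of psma7, the normalized counts were 200, 286 and 232 in CTR, 415, 501 and 436 in AA and 315, 319 and 359 in IGF1. AA again lay above the rest and IGF1 above CTR with no overlap, with a log2 fold-change of 0.91 ± 0.17 in AA (edgeR adjusted p = 0.0015) and 0.47 ± 0.17 in IGF1 (adjusted p = 0.11, not called). The AA change of psma1 was smaller, 0.59 ± 0.17 (edgeR adjusted p = 0.032), and its call was lost without any CTR library or without AA replicate 2 (adjusted p up to 0.21). In contrast, psma4 had 386 to 463 normalized counts in CTR, 359 to 536 in AA and 437 to 516 in IGF1, so its groups overlapped (0.08 ± 0.16 in AA, adjusted p = 0.81). The remaining alpha genes (psma2, psma6a, psma6b and psma6l) had AA fold-changes from -0.24 to 0.55 and were not called in any comparison.

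Of the constitutive beta genes, which include the catalytic subunits psmb5, psmb6 and psmb7, 3 of 7 were up-regulated in AA (psmb1, psmb3 and psmb7). The trypsin-like subunit psmb7 had normalized counts of 264, 285 and 285 in CTR, 440.2, 458 and 555 in AA and 376, 313 and 377 in IGF1. AA was highest, IGF1 between and CTR lowest, without overlap. Its log2 fold-change was 0.76 ± 0.15 in AA (edgeR adjusted p = 0.0028) and 0.37 ± 0.15 in IGF1 (adjusted p = 0.19, not called).

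The other catalytic subunits were not called. The caspase-like psmb6 had normalized counts of 631, 742 and 702 in CTR, 519, 688 and 485 in AA and 663, 735 and 642 in IGF1. AA replicates 1 and 3 lay below every CTR library and AA replicate 2 within them, and the fold-change was -0.27 ± 0.15 (edgeR adjusted p = 0.28). The chymotrypsin-like psmb5 had 475 to 584 normalized counts in CTR and 569 to 859.6 in AA, which overlapped (0.38 ± 0.16, adjusted p = 0.15). The named catalytic genes psmb6 and psmb5 were chosen for description after their values were seen.

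The structural subunit psmb1 was up-regulated in both treatments. Its normalized counts were 329, 319.7 and 373 in CTR, 480.4, 534 and 527 in AA and 479.8, 613 and 465 in IGF1. Both treated groups lay above CTR and overlapped each other, with log2 fold-changes of 0.58 ± 0.15 in AA (edgeR adjusted p = 0.017) and 0.59 ± 0.15 in IGF1 (adjusted p = 0.020). The AA call was lost without CTR replicate 2 or AA replicate 2, and the IGF1 call without any CTR library or IGF1 replicate 2 (adjusted p up to 0.096).

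The AA libraries of psmb3 overlapped CTR (0.60 ± 0.18, edgeR adjusted p = 0.038), and its call was lost without CTR replicate 1 or 3, AA replicate 1 or 2, or IGF1 replicate 3 (adjusted p up to 0.17). For psmb4, all AA libraries (764, 801 and 851 normalized counts) exceeded all CTR libraries (592, 669 and 654), but the fold-change of 0.31 ± 0.13 was not called (adjusted p = 0.13). The IGF1 libraries of psmb4 lay at 682 to 704 normalized counts.

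No inducible beta gene was called in any comparison. The immunoproteasome subunits psmb8a, psmb9a and psmb10 and the fish genes psmb12 and psmb13a were thinly counted, with SEs of 0.27 to 0.76 in AA. Normalized counts of psmb12 were 90.0, 59.1 and 76.0 in CTR, 82.5, 73.7 and 63.3 in AA and 113, 91.2 and 105 in IGF1. IGF1 lay above CTR without overlap (0.48 ± 0.24, edgeR adjusted p = 0.33) while AA lay within the CTR range (-0.01 ± 0.27, adjusted p = 0.99). For psmb9a, AA (38.1, 42.6 and 63.3) lay above CTR (26.5, 35.8 and 32.2) without overlap, but the fold-change of 0.50 ± 0.37 was not called (adjusted p = 0.44).

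The remaining inducible genes had wide errors. The AA fold-change was 1.13 ± 0.76 for psmb8a (edgeR adjusted p = 0.39), 0.27 ± 0.37 for psmb10 (adjusted p = 0.72) and -0.22 ± 0.55 for psmb13a (adjusted p = 0.85). A change of the size seen for psma3 could not be told from none at this depth for psmb8a, whose normalized counts ran from 0.730 to 10.6 in CTR and from 0 to 25.4 in AA. The leukocyte marker ptprc was the only one of 6 leukocyte markers found, with 0 to 22.8 normalized counts per library.

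Of the ATPases of the 19S base, the ring that unfolds substrates, 3 of the 5 found were up-regulated in AA (psmc3, psmc4 and psmc6), with a group median of 0.63. In IGF1 none was called, with a median of 0.13. For psmc4 (contig Duran_pc_TRINITY_DN2173_c0_g1_i1) the normalized counts were 182, 219 and 204 in CTR, 341, 360.5 and 450 in AA and 233, 188 and 231 in IGF1. All AA libraries lay above all others, while IGF1 overlapped CTR. The log2 fold-change was 0.88 ± 0.17 in AA (edgeR adjusted p = 0.0021) and 0.13 ± 0.17 in IGF1 (adjusted p = 0.78).

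The same layout was found for psmc6, with normalized counts of 297, 314 and 313 in CTR, 491, 459.9 and 513 in AA and 344, 279 and 366 in IGF1. AA was clear of both other groups, with a log2 fold-change of 0.64 ± 0.15 (edgeR adjusted p = 0.0096) against 0.12 ± 0.15 in IGF1 (adjusted p = 0.76). For psmc3 both treatments lay above CTR, at 211 to 257 normalized counts in CTR, 303 to 443 in AA and 298 to 353 in IGF1. Its AA change was 0.63 ± 0.17 (edgeR adjusted p = 0.021, lost without CTR replicate 1 or 3 or AA replicate 2, up to 0.10), and its IGF1 change was 0.40 ± 0.17 (adjusted p = 0.20). The AA changes of psmc5 (0.52 ± 0.18, adjusted p = 0.072) and psmc2 (0.20 ± 0.16, adjusted p = 0.48) were not called.

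Both scaffold genes of the base, which hold the receptors for ubiquitin, were up-regulated in AA. For psmd1 the normalized counts were 302, 349.7 and 374 in CTR, 624, 722 and 612 in AA and 435, 561 and 497 in IGF1. The groups did not overlap, in the order CTR, IGF1, AA, with log2 fold-changes of 0.93 ± 0.15 in AA (edgeR adjusted p = 0.00045) and 0.53 ± 0.15 in IGF1 (adjusted p = 0.041). The IGF1 call of psmd1 was lost without any CTR library or without IGF1 replicate 2 or 3 (adjusted p up to 0.16). For psmd2, AA had 539.7, 724 and 633 normalized counts against 378, 466 and 469 in CTR. These did not overlap, and the fold-change of 0.52 ± 0.16 (edgeR adjusted p = 0.036) was lost as a call without any CTR library or without AA replicate 2 (adjusted p up to 0.21).

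The lid, which cuts ubiquitin from the substrate, had 3 of 9 genes up-regulated in AA (psmd7, psmd12 and psmd14), a median of 0.46 in AA and 0.10 in IGF1, and no gene called in IGF1. Normalized counts of psmd12 were 142, 215 and 172 in CTR, 256, 364 and 366 in AA and 225, 254 and 237 in IGF1. AA lay above CTR and above IGF1 in every library and IGF1 above CTR, with 0.87 ± 0.19 in AA (edgeR adjusted p = 0.0058, and 0.059 without AA replicate 2) and 0.43 ± 0.19 in IGF1 (adjusted p = 0.24). The deubiquitinase of the lid, psmd14, had normalized counts of 103, 147 and 138 in CTR, 193, 248 and 323 in AA and 225, 99.7 and 203 in IGF1. AA lay above CTR, but IGF1 was split, with replicate 2 below all CTR libraries and replicates 1 and 3 above them.

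The fold-change of psmd14 was 0.91 ± 0.26 in AA (edgeR adjusted p = 0.026), and its partner in the lid, psmd7, had 0.61 ± 0.18 (adjusted p = 0.033). Both calls were lost without CTR replicate 1 or 3 or AA replicate 2 or 3 (adjusted p up to 0.098 for psmd14 and 0.14 for psmd7). The copies psmd11a and psmd11b had different AA fold-changes, neither of them called, at -0.12 ± 0.19 (adjusted p = 0.76) and 0.66 ± 0.22 (adjusted p = 0.057). In 6 alternative fits, DESeq2 among them, psmd11b was called. Within each library the log2 ratio of psmd11a to psmd11b was 0.54 to 0.99 in CTR, -0.29 to 0.49 in AA and 0.56 to 1.39 in IGF1. The mean ratio in AA lay below that in CTR by 0.69 without overlap, and as this ratio was chosen after the values were seen it is given without a test. Of the other lid genes, psmd3 had 292 to 438 normalized counts in CTR and 429 to 578 in AA, which overlapped (0.40 ± 0.18, adjusted p = 0.16). The AA changes of psmd6, psmd8 and psmd13 were 0.40, 0.24 and 0.46, with none called.

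**Figure D2:**
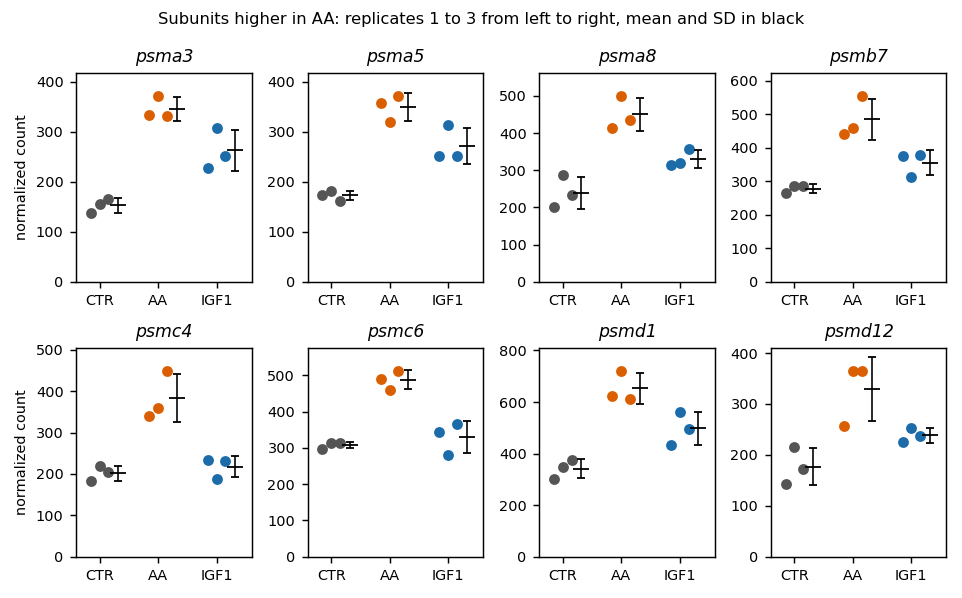
Normalized count (y axis, from 0) of 8 core and 19S subunits in each library of CTR, AA and IGF1, with the mean and SD of 3 libraries in black. The 8 were chosen from the genes up-regulated in AA, and 27 of all 48 genes had AA above CTR without overlap. In every panel the 3 AA points lie above the 3 CTR points, and for psmc4 and psmc6 the IGF1 points overlap CTR.

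The chaperones that assemble the 19S base were not called in any comparison. Normalized counts of psmd5 were 138 to 151 in CTR, 113 to 135 in AA and 114 to 137 in IGF1, so that both treated groups lay just below CTR (-0.24 ± 0.21 in AA, edgeR adjusted p = 0.53). The AA libraries of psmd9 spanned those of CTR (0.05 ± 0.20, adjusted p = 0.90). For psmd10, also known as the oncoprotein gankyrin in mammals, AA had 48.7, 48.0 and 77.3 against 31.3, 40.2 and 24.8 in CTR, above it in every library but without a call (0.75 ± 0.36, adjusted p = 0.20).

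Of the 11S caps, psme1 encodes a subunit of the cytosolic activator and psme3 the nuclear one, and both had higher normalized counts in every AA library than in any CTR library. For psme1 the normalized counts were 170.3, 170.1 and 154 in CTR, 256, 214 and 323 in AA and 229, 197 and 169 in IGF1. The AA change was 0.61 ± 0.19 (edgeR adjusted p = 0.048), a call that held without AA replicate 2 and was lost without any other single library (adjusted p up to 0.17). For psme3 they were 98.8 to 111 in CTR, 122 to 183 in AA and 128 to 154 in IGF1. Neither the AA change of psme3 (0.52 ± 0.22, adjusted p = 0.13) nor its IGF1 change (0.43 ± 0.20, adjusted p = 0.29) was called.

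The PA200 gene psme4a was down-regulated in both treatments. Normalized counts of psme4a (contig Duran_pc_TRINITY_DN623_c0_g1_i6) were 449, 439 and 467 in CTR, 279, 237 and 267 in AA and 226, 296 and 261 in IGF1. Every treated library lay below every CTR library. The mean fell from 452 ± 14.2 (SD, n = 3) in CTR to 261 ± 21.6 in AA and 261 ± 35.2 in IGF1, with log2 fold-changes of -0.82 ± 0.16 in AA (edgeR adjusted p = 0.0022) and -0.81 ± 0.15 in IGF1 (adjusted p = 0.0023). The direct difference between AA and IGF1 was -0.01 ± 0.16 (adjusted p = 0.98). AA to CTR and IGF1 to CTR share the CTR libraries, so these are not independent findings. Of all 48 genes, psme4a was the only one called in both treatments in all 21 alternative fits.

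The name psme4a was carried by 9 contigs in 2 assembly components, and these differed. In the component Duran_pc_TRINITY_DN623_c0_g1 all 7 contigs had lower values in both treatments, from -0.86 to -0.72 in AA and from -0.81 to -0.48 in IGF1, with 5 of 7 called in each. The 4 of them with the most counts lay close together, at 415 to 467 normalized counts over the CTR libraries, and may share reads. In the component Duran_pc_TRINITY_DN947_c1_g1 the 2 contigs had -0.23 and -0.19 in AA, not called, and -1.10 and -0.99 in IGF1, with 1 called (edgeR adjusted p = 0.032). The leading contig of that component, Duran_pc_TRINITY_DN947_c1_g1_i1, had 140, 112 and 141 normalized counts in CTR, 157, 77.1 and 134 in AA and 36.1, 65.5 and 79.7 in IGF1. In it, AA overlapped CTR and all IGF1 libraries lay below CTR.

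Counted contig by contig, 20 of the 79 proteasome contigs were up-regulated in AA and 6 were down-regulated, against 4 and 6 in IGF1. Over all 35575 contigs 5.29% were up-regulated and 6.6% down-regulated in AA, and 2.5% and 3.43% in IGF1. Contigs of one gene may share reads, so they are not separate measurements. Of the down-regulated contigs, 5 in AA and 6 in IGF1 carried the name psme4a.

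The other PA200 gene, psme4b, was not called in any comparison. Its normalized counts were 271, 199 and 200.2 in CTR, 220.1, 262 and 225 in AA and 221, 319 and 261 in IGF1. The groups overlapped, with 0.09 ± 0.19 in AA (edgeR adjusted p = 0.82) and 0.24 ± 0.19 in IGF1 (adjusted p = 0.58). Within a library the log2 ratio of psme4a to psme4b was 0.73 to 1.22 in CTR, -0.14 to 0.34 in AA and -0.11 to 0.03 in IGF1. Both treatments lay below CTR without overlap, by 0.88 in AA and 1.05 in IGF1. The 3 psme4b contigs belong to the same assembly graph as the first psme4a component, so reads may be shared between these copies, and the ratio, chosen after its values were seen, is given without a test.

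PI31, encoded by psmf1, binds the core and was first described as its inhibitor. Normalized counts of psmf1 were 188, 236 and 215 in CTR, 112, 162 and 119.5 in AA and 203, 194 and 174 in IGF1. Every AA library lay below every CTR and every IGF1 library, while IGF1 overlapped CTR. The AA change was -0.65 ± 0.21 (edgeR adjusted p = 0.046), the IGF1 change -0.17 ± 0.19 (adjusted p = 0.74) and the direct difference between AA and IGF1 -0.48 ± 0.21 (adjusted p = 0.18). The AA call of psmf1 held without AA replicate 2 and was lost when any other single library was left out (adjusted p up to 0.17), and it was also lost with library size alone as the scaling (adjusted p = 0.13).

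The chaperones that build the core were counted thinly. Of 3 found, psmg3 was up-regulated in AA and had the highest fold-change of the 48 genes. Its normalized counts were 43.4, 16.1 and 31.1 in CTR, 91.0, 68.3 and 70.3 in AA and 36.1, 57.0 and 39.0 in IGF1. AA lay above both other groups, with 1.34 ± 0.37 in AA (edgeR adjusted p = 0.024), but the call was lost without CTR replicate 2 or 3 or AA replicate 1 or 2 (adjusted p up to 0.11). For psmg1, AA had 52.9, 70.3 and 127 against 40.2, 41.6 and 52.3 in CTR, above it in every library and not called (0.73 ± 0.32, adjusted p = 0.16). AA and CTR overlapped for psmg2 (0.00 ± 0.27, adjusted p = 1), and its IGF1 change was 0.43 ± 0.26 (adjusted p = 0.45).

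**Figure D3:**
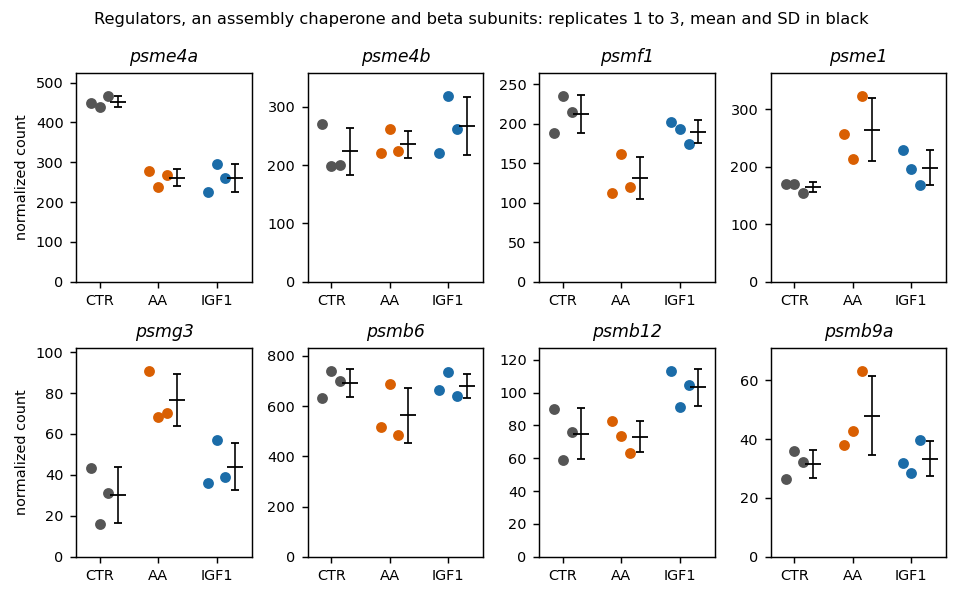
Normalized count (y axis, from 0) in each library of PA200 (psme4a, psme4b), PI31 (psmf1), the 11S subunit psme1, the chaperone psmg3 and 3 beta subunits, with the mean and SD of 3 libraries in black. All 6 treated libraries of psme4a lie below CTR, and only AA does so for psmf1.

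Fewer proteasome genes were called in IGF1 without amino acids. Compared to CTR, 4 of 48 were up-regulated (psma3, psma5, psmb1 and psmd1) and 1 was down-regulated (psme4a), where 3.11% and 3.31% of all names were called (5.33% and 5.82% of names averaging at least 100 raw counts). None passed the 2-fold minimum. The fold-change was above 0 for 41 of 48 genes, with a median of 0.18, against 54.8% of all names above 0 and a median of 0.05 over them. All IGF1 libraries lay above all CTR libraries for 15 genes and below them for 2, where the background was 16.3% and 13.9%, and at an unadjusted p under 0.05 edgeR gave 10 genes, where 18.5% of all names passed.

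The IGF1 count rested on few libraries. It was 1 to 5 with 1 library left out, at 1 without CTR replicate 1, 2 without CTR replicate 2, CTR replicate 3 or IGF1 replicate 2, and 3 without IGF1 replicate 3. Fibroblast markers moved with this group. Of 8 such genes found, 7 were up-regulated in IGF1, and their summed normalized count was 155698 to 167486 in CTR, 156610 to 168887 in AA and 236393 to 244530 in IGF1. The collagen genes col1a1a, col1a1b and col1a2 made up most of this sum, with means of 44380, 43226 and 62654 normalized counts in CTR. Gene by gene, lum was the one not called in IGF1 (-0.03 ± 0.11). In AA, 2 of the 8 were up-regulated (lum, 0.50 ± 0.11, and postnb, 2.53 ± 0.31) and none was down-regulated. The summed count was high in all 9 libraries. Of the other lists, 3 of 5 endothelial, 2 of 3 adipocyte and 0 of 3 red blood cell markers were found. The endothelial sum was 252 to 269 normalized counts in CTR, 176 to 349 in AA and 262 to 326 in IGF1. Its genes went both ways in IGF1. There tek was up-regulated (1.52 ± 0.44, edgeR adjusted p = 0.046), though its IGF1 and CTR libraries overlapped. In contrast, cdh5 had every IGF1 library below CTR but was not called (-1.11 ± 0.35, adjusted p = 0.067). Set against IGF1, AA had cdh5 up-regulated (1.52 ± 0.36, adjusted p = 0.012), with overlapping libraries. The adipocyte sum was 59.4 to 87.3 in CTR, 44.6 to 70.3 in AA and 48.9 to 68.4 in IGF1, with none called. The part of these shifts in the IGF1 values was not tested.

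Set directly against IGF1, AA had 2 proteasome genes up-regulated (psmc4 and psmc6) and none down-regulated, where 4.23% of all names were up-regulated and 4.8% down-regulated. A share of 2 in 48 is near that background, which here was not limited to names averaging at least 100 raw counts. At an unadjusted p under 0.05 edgeR gave 14 genes, where 22.5% of all names passed, and DESeq2 also called 2 up and 0 down. The difference was 0.75 ± 0.17 for psmc4 (adjusted p = 0.0094), a call that held in all 21 alternative fits, and 0.52 ± 0.15 for psmc6 (adjusted p = 0.044), a call lost when any single library was left out. The 48 genes had a median difference of 0.23, against -0.02 over all names. The difference was above 0 for 36 of the 48 genes, against 48.7% of all names. More genes were called in AA than in IGF1 against CTR, but the direct comparison called only psmc4 and, less firmly, psmc6. Genes without a direct call are not thereby shown to be equal in AA and IGF1.

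Core and regulatory genes were separated little. In AA 7 of 21 core genes and 9 of 23 regulatory genes were up-regulated, where 6.56% of all names were. Their median fold-changes were 0.38 and 0.52, and 1 regulatory gene (psme4a) was down-regulated. In IGF1 the medians had the other order, at 0.29 and 0.13. There 3 core genes (14.3%) and 1 regulatory gene (4.35%) were up-regulated, where 3.11% of all names and 5.33% of names averaging at least 100 raw counts were. The regulatory share is near that background. None of these up-regulated calls in IGF1 held without CTR replicate 1 or with counts summed per gene name. The difference of medians, core minus regulatory, was -0.14 in AA, 0.16 in IGF1 and -0.17 for AA against IGF1, and no p is attached to these. Per library, relative to the CTR mean of each gene, core minus regulatory was 0.02, -0.02 and -0.01 in CTR, -0.12, -0.12 and -0.11 in AA and 0.23, 0.08 and 0.15 in IGF1. The groups did not overlap, but CTR lies near 0 by this construction and all treated libraries share the same CTR reference. The sign in AA turned when all 79 contigs were counted (0.077) and when AA replicate 2 was left out (0.0081). Without CTR replicate 2 the difference was -0.075 in AA and 0.032 in IGF1.

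The summed normalized counts of the classes rose by nearly equal ratios in AA, and by more for core than for regulatory genes in IGF1. Per 1000000 normalized counts, core genes took 429 to 507 in CTR, 636 to 739 in AA and 520 to 550 in IGF1, which is a ratio of means of 1.45 in AA and 1.15 in IGF1. Regulatory genes took 465 to 563, 701 to 803 and 505 to 574 in the same order, with ratios of 1.49 and 1.06. Like the sum over all members, these sums were scaled by library total and not corrected for the general AA shift. In IGF1 the core sums lay above all CTR sums and the regulatory sums overlapped them. Among the members found, 7 of 16 genes of constitutive 20S subunits and 8 of 16 genes of 19S subunits were up-regulated in AA, against 3 and 1 in IGF1. Of names averaging at least 100 raw counts, 8.5% were up-regulated in AA and 5.33% in IGF1. The 1 19S gene in IGF1 is 6.25% of its class, near that background. Copies such as psma6a, psma6b and psma6l, or psmd11a and psmd11b, count as separate genes, so these are not numbers of subunits. The 16 genes of the 19S particle do not cover all of it. The rule did not match adrm1 and sem1, other parts of the complex, which were not called in any comparison (-0.22 ± 0.16 and 0.18 ± 0.17 in AA). No psmc1 was found, and psmd4b fell below the minimum.

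**Figure D4:**
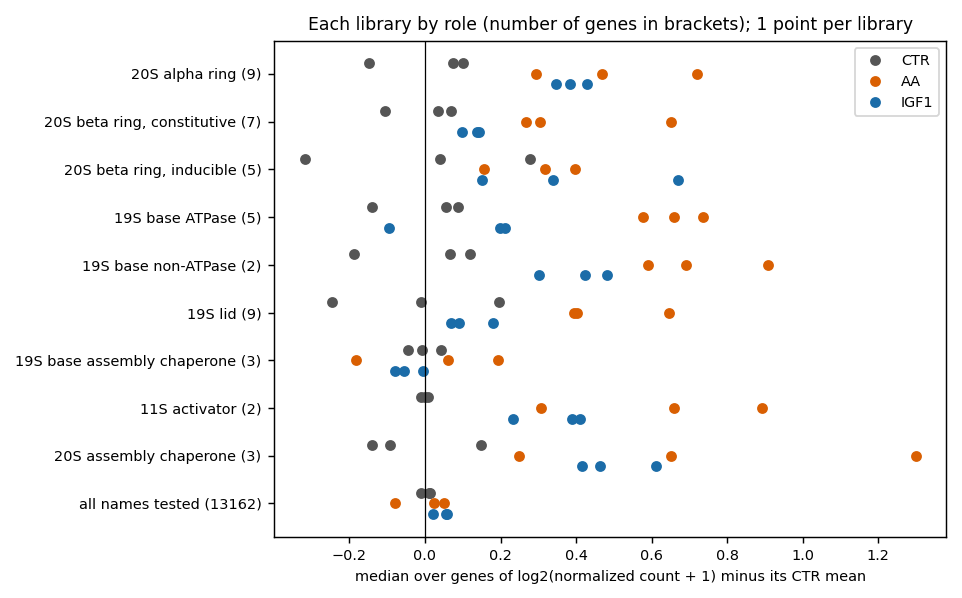
Median over the genes of each role drawn of the log2 normalized count (plus a pseudocount of 1) minus its CTR mean (x axis), with 1 point per library. The PA200 and PI31 roles are not drawn. Their AA libraries lay below the CTR mean, at -0.37 to -0.34 for PA200 and -0.91 to -0.38 for PI31. The 19S ATPases lie at 0.58 to 0.74 in AA and -0.10 to 0.21 in IGF1, and the median over all 13162 names stays between -0.08 and 0.06.

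Among other genes of the ubiquitin and proteasome pathway few were called. Of 38 listed genes that were found, 1 was up-regulated in AA (uchl5) and 4 were down-regulated (ubb, ubc, nfe2l1a and zfand2a), with a median of -0.14, and in IGF1 none was up-regulated and 3 were down-regulated (nfe2l1a, zfand2a and ube2d1b), with a median of -0.06. At an unadjusted p under 0.05 edgeR gave 12 of the 38 in AA and 9 in IGF1, where 26.8% and 18.5% of all names passed. AA against IGF1 had 3 down-regulated genes (ubb, ubc and usp14), which is 7.89% of the list against 4.8% of all names, and none up-regulated. For that comparison the share among names averaging at least 100 raw counts was not computed. Compared to CTR, the down-regulated genes are 10.5% of the list in AA and 7.89% in IGF1. As 36 of the 38 averaged at least 100 raw counts, the background to set beside them is the 11.6% and 5.82% of such names, and these shares are near it. The 1 gene up-regulated in AA is 2.63% of the list, against 8.5% of such names.

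The polyubiquitin genes, which supply free ubiquitin under stress, fell in AA. Normalized counts of ubb were 2630, 2522 and 2876 in CTR, 775, 1085 and 1076 in AA and 1954, 1821 and 2282 in IGF1. The groups did not overlap, with CTR highest and AA lowest, at -1.47 ± 0.14 in AA (edgeR adjusted p = 1.8e-06) and -0.40 ± 0.14 in IGF1 (adjusted p = 0.099). Normalized counts of ubc were 3700, 3631 and 3851 in CTR, 1630, 2068 and 2411 in AA and 2703, 3067 and 3049 in IGF1. The order was the same, at -0.90 ± 0.13 in AA (edgeR adjusted p = 8.9e-05) and -0.34 ± 0.12 in IGF1 (adjusted p = 0.12).

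Directly against IGF1, the log2 fold-change of AA was -1.07 ± 0.14 for ubb (edgeR adjusted p = 6.0e-05) and -0.56 ± 0.13 for ubc (adjusted p = 0.0075). With counts summed per gene name the AA change of ubb against CTR was smaller, -0.84 (edgeR adjusted p = 0.016). The ubb contrast to IGF1 was not called when counts were summed per gene name (adjusted p = 0.17), and the ubc contrast was lost there, with library size alone and without IGF1 replicate 3 (adjusted p up to 0.10). Both genes encode repeats of the same ubiquitin and both contigs belong to the assembly component Duran_pc_TRINITY_DN221_c0_g1, so reads may have been split between them. The gene rps27a, which encodes ubiquitin fused to a ribosomal protein, was looked at after the polyubiquitin values were seen and was not called (-0.02 ± 0.12 in AA, edgeR adjusted p = 0.96).

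The transcription factor NRF1, encoded in fish by nfe2l1a and its copies, drives proteasome genes in mammals when proteasome activity is short. Normalized counts of nfe2l1a were 263, 299 and 259.9 in CTR, 88.9, 138 and 98.4 in AA and 136, 145 and 169 in IGF1. Both treated groups lay below CTR without overlap, at -1.27 ± 0.21 in AA (edgeR adjusted p = 0.00054) and -0.85 ± 0.20 in IGF1 (adjusted p = 0.011, lost without CTR replicate 2 or IGF1 replicate 1, up to 0.077). The leading contig named nfe2l1 had 89.2 to 107 normalized counts in CTR and 56.2 to 114 in AA, which overlapped (-0.15 ± 0.27, adjusted p = 0.79).

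The stress-induced proteasome partner zfand2a was also lower in both treatments, with normalized counts of 351, 472 and 444 in CTR, 222, 219.8 and 267 in AA and 236, 299 and 272 in IGF1. Neither treated group overlapped CTR, with -0.89 ± 0.17 in AA (edgeR adjusted p = 0.0021) and -0.66 ± 0.16 in IGF1 (adjusted p = 0.018, lost without CTR replicate 2 or 3 or IGF1 replicate 1 or 3, up to 0.11). The ubiquitin-conjugating enzyme ube2d1b was lower in IGF1, with 77.2, 42.7 and 90.9 normalized counts against 132, 182 and 147 in CTR. These did not overlap (-1.02 ± 0.24, edgeR adjusted p = 0.015, lost without CTR replicate 2 or 3 or IGF1 replicate 1, up to 0.10). The AA libraries (102, 107 and 112) also lay below all CTR libraries, without a call (-0.54 ± 0.26, adjusted p = 0.20). AA against IGF1 was not called either (0.48 ± 0.27, adjusted p = 0.33).

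The deubiquitinases that dock on the 19S particle were called in different comparisons. For uchl5 the normalized counts were 49.8, 45.3 and 52.7 in CTR, 146, 81.2 and 112 in AA and 77.2, 79.8 and 65.7 in IGF1. AA lay above all other libraries (1.15 ± 0.28, edgeR adjusted p = 0.011, lost without CTR replicate 2 or AA replicate 1, up to 0.092). For usp14 they were 232, 306 and 279 in CTR, 167, 266 and 176 in AA and 336, 333 and 386 in IGF1. AA overlapped CTR and lay below IGF1 in every library, with a log2 difference of -0.75 ± 0.20 (edgeR adjusted p = 0.024), a call lost without AA replicate 1 or 3 or IGF1 replicate 3 (adjusted p up to 0.12).

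**Figure D5:**
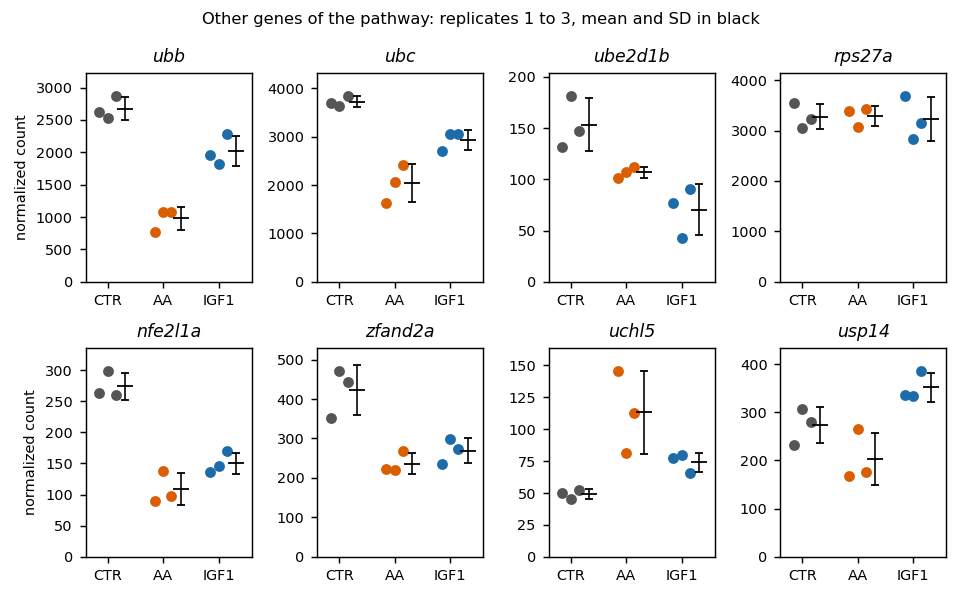
Normalized count (y axis, from 0) in each library of 3 ubiquitin genes (ubb, ubc, rps27a), the conjugating enzyme ube2d1b, the factor nfe2l1a, and the proteasome partners zfand2a, uchl5 and usp14, with the mean and SD of 3 libraries in black. AA lies below CTR and IGF1 for ubb and ubc, and the groups overlap for rps27a.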

How the data were processed

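Per the labels and the methods, the authors trimmed reads with Trimmomatic after FastQC (version 0.11.8), assembled them with Trinity, aligned them with Bowtie2 and named contigs by BLASTx. The tool that made the counts is not given in the sources used here. The build field names a zebrafish genome, but the features are assembled contigs without coordinates. The authors deposited a raw count table (69932 contigs) and a table of normalized counts, a signal scaled per library after DESeq2. A deposited normalized count times 1 factor per library gave the raw count to within 0.000214. All columns could be mapped to samples.

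The 35575 contigs whose raw counts averaged at least 10 were fitted with edgeR 4.0.16 (R 4.3.3; TMM factors, quasi-likelihood test of the legacy kind, all 9 libraries, Benjamini-Hochberg over all contigs). The study's 2-fold minimum is given beside the calls. Replicates of a group differed by more than sampling noise (chi-square per degree of freedom 3.74 to 12.2). P-values measure the spread between these libraries only. The alternatives were DESeq2 1.42.0, limma 3.58.1 on log2 normalized counts plus 1, other scalings, filters and member choices, a replicate block and leaving out each library. The code was tested on simulated data. A gene was read at its contig with the highest mean raw count.

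The members, roles and lists were chosen with earlier results of these data known. Named genes were the 8 with the smallest adjusted p among those called in each comparison, in each role the gene with the highest mean and the one with the smallest adjusted p, all activators, inducible subunits, assembly factors and psmf1, and of the pathway list the 3 with the smallest adjusted p in each comparison and nfe2l1. Copies of a gene and contigs of one assembly component may share reads, so their separate values are uncertain. Pathway genes that are not named enter only the counts and medians of the list.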

Additional observations from a re-analysis of the deposited data

How the results depend on the processing

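No called gene changed direction in any of 21 alternative fits. Of the genes called, 8 of 19 kept the call in all 21 for AA to CTR, 1 of 5 for IGF1 to CTR and 1 of 2 for AA to IGF1. With library size alone as the scaling the median of all contigs moved by 0.14 in AA to CTR and 0.17 in AA to IGF1. Relative to the median of all contigs, the members were 0.53 to 0.54 higher in AA than in CTR under 3 scalings. A scaling moves members and other contigs nearly alike, so this relative value could hardly differ between scalings. The number of genes called in AA to CTR was 2 with a 2-fold minimum, 12 without a filter on low counts and 10 with counts summed per name, and 10 to 17 with 1 library left out. For IGF1 to CTR it was 0 with a 2-fold minimum, 1 with summed counts and 1 to 5 with 1 library left out. For AA to IGF1 it was 0 with a 2-fold minimum, 11 with library size alone, 1 without a filter, 1 with only the 2 groups compared, and 1 whichever library was left out.

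Core minus regulatory in AA to CTR was 0.077 over all contigs, -0.055 without inducible and psme genes, -0.082 with 3 genes known only by description added (chosen after seeing the data), and -0.15 to 0.0081 with 1 library left out. In IGF1 to CTR it was 0.22, 0.10 and 0.11 in the same order, 0.10 with the newer quasi-likelihood method, and 0.032 to 0.20 with 1 library left out. In AA to IGF1 it was -0.048 over all contigs, -0.12 with described genes, -0.12 with the newer method, -0.12 without a filter, and -0.18 to -0.049 with 1 library left out. The cause of these differences was not tested, apart from the fewer libraries or genes that the settings themselves leave.

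With a replicate block 20 genes were called in AA to CTR (the same 19 and psmd11b), 5 in IGF1 to CTR and 2 in AA to IGF1. The labels do not say that a number marks a shared culture, and deviations of libraries with the same number correlated at -0.05 to 0.11, with 2 of 9 such pairs over 0.1, and the fits above ignore the numbers. Depth limits thinly counted genes such as psmb8a, which had 0 raw counts in AA replicate 3. The AA change of psmd11b was also called with library size alone, DESeq2, the newer quasi-likelihood method and without AA replicate 1 or 3.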

Other observations

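Names that describe a proteasome gene without its symbol fell outside the rule, and their leading contigs were looked at after the other values were seen. The contig named as proteasome subunit alpha 7 had raw counts of 57, 89 and 104 in CTR, 35, 129 and 3 in AA and 75, 13 and 285 in IGF1. Its log2 fold-change was 0.51 ± 0.37 (SE) in AA (edgeR adjusted p = 0.43) and 0.07 ± 0.35 in IGF1 (adjusted p = 0.96). The core assembly chaperone 4 had 1.01 ± 0.43 in AA (adjusted p = 0.14) and 0.79 ± 0.40 in IGF1 (adjusted p = 0.33). The contig named as a non-ATPase regulatory subunit 13-like had -0.40 ± 0.41 in AA (adjusted p = 0.61) and -0.34 ± 0.37 in IGF1 (adjusted p = 0.72). None was called in any comparison.

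Of the pathway genes that were not called, some are given here, chosen after their values were seen. The core maturation factor pomp had -0.16 ± 0.19 in AA (edgeR adjusted p = 0.66) and -0.31 ± 0.19 in IGF1 (adjusted p = 0.44). The ubiquitin receptor adrm1 had -0.22 ± 0.16 (adjusted p = 0.43) and -0.31 ± 0.15 (adjusted p = 0.31), and the unfoldase vcp had 0.33 ± 0.12 (adjusted p = 0.084) and 0.17 ± 0.12 (adjusted p = 0.50). Larger AA fold-changes without a call were those of the proteasome adaptor ecpas, at 0.59 ± 0.20 (edgeR adjusted p = 0.063) with every AA library above CTR, and of the conjugating enzyme ube2d2l, at 0.72 ± 0.26 (adjusted p = 0.081). The glycanase ngly1 had -0.73 ± 0.29 (edgeR adjusted p = 0.11) and the transcription factor gene nfe2l2b had 1.14 ± 0.41 (adjusted p = 0.079).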
